A study of Homo sapiens with 54 samples.

Results

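The human induced pluripotent stem cell (hiPSC) line 201B7 was compared with the human embryonic stem cell (hESC) line KhES-1, both grown on mouse embryonic fibroblast (MEF) feeder cells. The members were chosen from the labels as every culture titled 201B7 with MEF or KhES-1 with MEF, which gave 6 of the 27 cultures and 12 of the 54 arrays of the series. The study replaced basic fibroblast growth factor (bFGF) in the medium of hESCs and hiPSCs with FGFC, a heat-stable chimera of FGF1 and FGF2, and measured RNA with 1-colour Agilent arrays. 201B7 was derived from human dermal fibroblasts with POU5F1, SOX2, KLF4 and MYC. Each line gave 3 cultures with 2 arrays each: a pre-culture at passage 30, a culture in bFGF at passage 40 and a culture in FGFC at passage 40. The later cultures had grown for 50 days in 201B7, with 10 ng/mL of bFGF or FGFC, and for 30 days in KhES-1, with 5 ng/mL. The line, its medium and dose, its days of culture and its arrays cannot be told apart here, and each cell type is represented by 1 line.

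Pluripotent stem cells keep a shared network of transcription factors, led by POU5F1, SOX2 and NANOG, and hold the genes of later lineages at low levels. An hiPSC line starts from a somatic cell whose own program, including the HOX genes that record its place in the body, has to be silenced. Lines of either type are also known to differ from each other at imprinted genes and at gene clusters.

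Levels are log2 signals relative to the 75th percentile of each array, so that 0 is that percentile, and the values of a line are given in the order pre-culture, bFGF, FGFC. A probe is called well above background by the scanner software's own mark, and a gene without that mark on any array of a line is at background there. The log2 difference printed for such a gene is that of the signals, and the level of the lower line is known only as a bound. On the 12 arrays, 64.3% to 70.8% of probes carried that mark. The 75th percentile lay at a signal of 182 and 234 on the arrays of the 201B7 pre-culture and between 504 and 668 on the other 10. The 12 arrays lay on 4 slides read on 3 scan days, and no slide held both lines. All KhES-1 arrays were read on 1 scan day that held no 201B7 array. Below, a scan means a scan day, that is all arrays read on 1 date.

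Both lines carried the pluripotency markers. All 10 of the markers taken for pluripotent cells were well above background on all 12 arrays. POU5F1 measured 8.67, 8.59 and 8.71 in 201B7 and 8.85, 8.55 and 8.82 in KhES-1, so the lines overlapped, and the difference was -0.08 (SE 0.18, adjusted p = 0.736). SOX2 measured 5.10, 5.51 and 5.85 in 201B7 and 5.78, 5.78 and 5.81 in KhES-1, with a difference of -0.30 (adjusted p = 0.316). Neither factor passed the test, and a second POU5F1 probe, well above background on all 12 arrays, did not either, at -0.55 (adjusted p = 0.0625). LIN28A, an RNA-binding protein, differed by -0.32 (adjusted p = 0.295), and DNMT3B, a DNA methyltransferase, by -0.16 (adjusted p = 0.485). NANOG measured 3.81, 4.29 and 4.32 in 201B7 and 5.04, 4.95 and 4.88 in KhES-1. All 3 of its 201B7 levels lay below all 3 KhES-1 levels, and the difference was -0.82 (SE 0.21, adjusted p = 0.0372), a call lost under other settings given with its list below.

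The most different gene was a fibroblast gene. DCN, decorin, a proteoglycan that binds collagen, measured 7.08, 6.28 and 4.85 in 201B7 and -2.09, -4.41 and -4.38 in KhES-1. Its levels did not overlap between the lines, and within 201B7 they were lower in each later culture. The means were 6.07 ± 1.13 in 201B7 and -3.62 ± 1.33 in KhES-1 (mean ± SD, n = 3 cultures), and the difference was 9.69 (SE 0.76, adjusted p = 0.00235). A second probe for DCN differed by 7.66 (adjusted p = 0.00217). In bulk RNA, fewer cells of a type and less RNA per cell cannot be told apart.

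Over the 40835 probes not placed on X or Y, 7948 passed a limma test at an adjusted p of 0.05, which is 19.5% of all probes. Of these, 6207 were higher and 1741 lower in 201B7. The share that was higher, 78.1%, depended on the scaling: it was 49.0% after quantile normalization and 30.1% with the median of the probes as the scale. Those scalings moved the median difference of all probes from 0.34 to -0.05 and -0.09. The count itself rested on single cultures. It was 10718, 1071 and 17259 without the 201B7 pre-culture, bFGF and FGFC cultures. Without the KhES-1 pre-culture, bFGF and FGFC cultures it was 1103, 618 and 1098. With the scan as a random block, an alternative chosen after seeing the data, 14 probes passed.

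Of 19538 autosomal genes, taken by 1 probe each, 2001 (10.2% of the genes) were higher and 1197 (6.13%) were lower in 201B7, with a median difference of -0.02 over all genes. This balance also depended on the settings, with 544 higher and 880 lower after quantile normalization, 1065 and 5324 with the median of the probes as the scale, and 1407 and 2146 when only probes well above background were tested. Counts for lists of genes below take every measured gene, marked or not, and are to be read beside these shares over all genes. A narrower group was set after seeing the data: past the test, at least 2-fold apart, no overlap between the lines, and well above background on all 6 arrays of the higher line. It held 811 genes higher in 201B7 (4.15% of all genes) and 379 lower (1.94%). With the scan as a random block, 1 of the 811 and 7 of the 379 passed the test. With the slide as a random block, 238 and 110 did, and without either pre-culture, 382 and 222. With normexp background correction, 131 and 61 passed, and without the KhES-1 bFGF culture, 148 and 62.

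**Figure D1:**
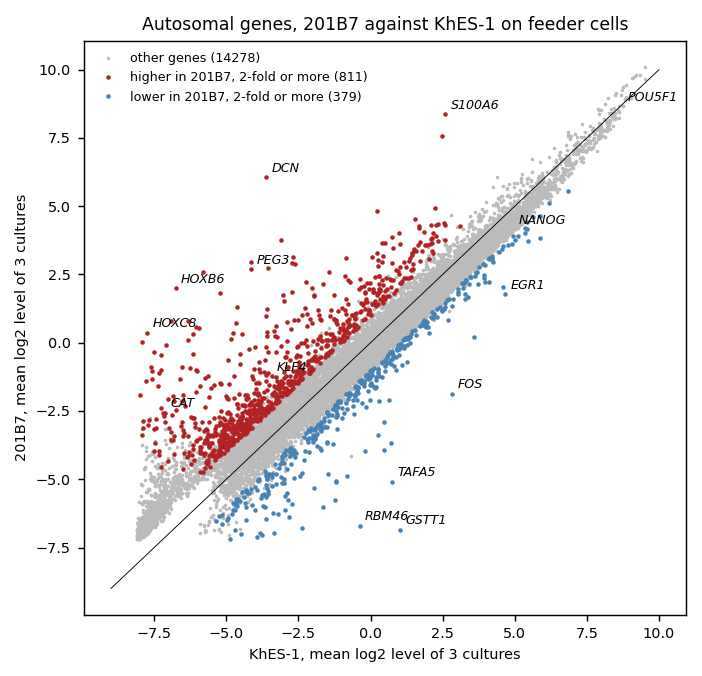
Mean log2 level of each gene that was well above background, over 3 cultures of KhES-1 (horizontal) and 3 cultures of 201B7 (vertical), relative to the 75th percentile of the array. The 811 genes at least 2-fold higher in 201B7 spread far from the diagonal, up to DCN, while POU5F1 lies near it.

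HOX genes made up the largest group among the leading genes. HOX proteins are homeodomain transcription factors that set position along the body axis, and they are low in undifferentiated pluripotent cells. Of 38 HOX genes measured, 19 were higher in 201B7 and 0 were lower, with a median difference of 0.97, and 12 belonged to the narrower group. Only 14 of the 38 were well above background on all arrays of a line, and those 12 were among them. HOXC12 and HOXD10, counted as higher, were at background on all 12 arrays. HOXB6 measured 3.40, 2.07 and 0.50 in 201B7 and -6.30, -7.26 and -6.72 in KhES-1. HOXC6 measured 3.79, 2.62 and 1.32 in 201B7 and -5.27, -6.99 and -5.12 in KhES-1. HOXC8 measured 1.53, 0.36 and -0.78 in 201B7 and -7.67, -7.93 and -7.65 in KhES-1. All 3 stood high in the 201B7 pre-culture, lower in bFGF and lowest in FGFC, and no culture of 201B7 reached down to KhES-1. Their differences were 8.75 (SE 0.67, adjusted p = 0.00235), 8.37 (SE 0.71, adjusted p = 0.00278) and 8.12 (SE 0.52, adjusted p = 0.00128).

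HOXC8 was at background on all 6 KhES-1 arrays, so 201B7 was at least 137-fold higher. HOXC4, at 0.92, -0.35 and -1.60 in 201B7, was likewise at least 83.7-fold higher. The HOXC genes lie side by side on chromosome 12: in a window of 10 neighbouring genes with HOXC10 to HOXC4, 7 belonged to the narrower group and the median difference was 4.47. In a window of 10 with HOXB2 to HOXB9 on chromosome 17, 4 did, with a median of 1.08. Few genes of the HOXA and HOXD clusters did: HOXA5 and HOXD9, named after their values were seen, differed by 2.40 (adjusted p = 0.0391) and 1.80 (adjusted p = 0.0331). The summed level of the 38 genes was 44.2, 20.5 and 10.8 in 201B7 and from 6.84 to 12.1 in KhES-1, as multiples of the 75th percentile, so the sum of the FGFC culture lay within the KhES-1 range. That sum is carried in KhES-1 by HOXA10, at 3.24, 2.56 and 3.46. With 1 culture left out, 11 to 25 of the 38 were higher, and with the scan as a random block 1 was.

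**Figure D2:**
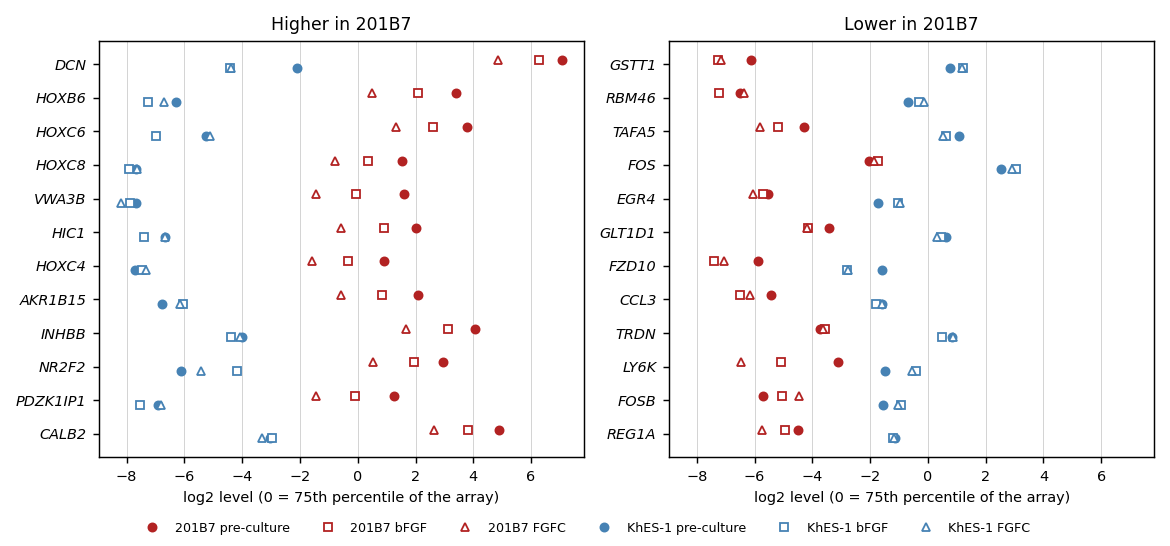
Log2 level of the 12 genes with the largest difference in each direction, 1 point for each culture, relative to the 75th percentile of the array. In the left panel the 201B7 points run from pre-culture on the right to FGFC on the left for every gene, and in neither panel do the lines overlap.

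Some fibroblast and mesenchymal genes were higher as well. Of 24 markers, 10 were higher in 201B7 and 0 lower, with a median difference of 0.69, and 7 belonged to the narrower group: DCN, TBX15, PDGFRA, TWIST1, LOX, S100A4 and COL1A1. COL3A1 and LUM are among the 10 but were at background on all 12 arrays. In a test of the 18 well above background in a line, 8 were higher. TBX15, a T-box factor of skin and skeletal mesenchyme, measured 0.86, -0.48 and -1.69 in 201B7 and -7.34, -7.18 and -7.27 in KhES-1, at least 78-fold higher in 201B7. PDGFRA, the platelet-derived growth factor receptor alpha, measured 2.77, 1.88 and 0.60 in 201B7 and -2.76, -3.03 and -3.31 in KhES-1. TWIST1, a mesenchymal transcription factor, measured 1.52, 0.26 and -1.03 in 201B7 and -4.07, -2.96 and -2.92 in KhES-1. TBX15, PDGFRA and TWIST1 were highest in the 201B7 pre-culture and lowest of the 3 in FGFC, and did not overlap with KhES-1. S100A4, named after its values were seen, ran in the reverse order in 201B7, at -0.28, -0.13 and 0.29. A second TWIST1 probe was not well above background on any 201B7 array and differed by 0.34.

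Several other defining fibroblast genes were at background or high in both lines. COL3A1, LUM and FAP were not well above background on any of the 12 arrays, and PRRX1 was not on any 201B7 array. COL1A1, the main chain of type I collagen, measured 4.89, 4.11 and 3.82 in 201B7 and 2.85, 3.35 and 3.13 in KhES-1, high in both lines. COL1A2 ranged from 2.60 to 3.93 in 201B7 and from 1.87 to 2.75 in KhES-1, where the lines overlapped, and its difference was 0.82 (adjusted p = 0.131). POSTN was marked on 3 arrays of 201B7 and 6 of KhES-1, and differed by 0.38 (adjusted p = 0.209). TWIST2 was marked on 1 and 2 arrays, and differed by -0.14 (adjusted p = 0.79). In each line, 4 of the 10 markers taken for fibroblasts were well above background on all 6 arrays and 4 on none, though not the same genes. Those 10 markers summed to 182, 104 and 49.3 in 201B7, most of it DCN, and to 11.2, 17.0 and 14.8 in KhES-1, where COL1A1 was the most abundant. The full list of 24 summed to 245, 165 and 103 in 201B7 against 62.3, 68.4 and 67.2 in KhES-1. The part of such cells in the other differences was not tested. With 1 culture left out, 3 to 13 of the 24 were higher, and 0 were with the scan as a random block.

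The remaining leading genes came from several families. HIC1, a transcriptional repressor, measured 2.01, 0.92 and -0.56 in 201B7 and -6.66, -7.39 and -6.68 in KhES-1, at least 162-fold higher in 201B7. INHBB, the activin and inhibin beta B subunit, measured 4.06, 3.11 and 1.68 in 201B7 and -4.00, -4.38 and -4.09 in KhES-1. NR2F2, an orphan nuclear receptor, measured 2.96, 1.95 and 0.54 in 201B7 and -6.11, -4.17 and -5.43 in KhES-1. Each was highest in the pre-culture of 201B7 and apart from KhES-1 in all cultures, with differences of 7.70 (adjusted p = 0.00235), 7.10 (adjusted p = 0.00235) and 7.05 (adjusted p = 0.00376). CALB2, the calcium-binding protein calretinin, measured 4.88, 3.81 and 2.64 in 201B7 and -3.05, -2.95 and -3.33 in KhES-1, a difference of 6.88 (SE 0.51, adjusted p = 0.00217). The aldo-keto reductase AKR1B15 differed by 7.11 (adjusted p = 0.00305). VWA3B, at background on all KhES-1 arrays, differed by 7.96 (adjusted p = 0.00285) and was at least 109-fold higher, and the small membrane protein PDZK1IP1 measured 1.26, -0.09 and -1.43 in 201B7 and -6.91, -7.55 and -6.82 in KhES-1 (adjusted p = 0.00306). A second VWA3B probe, not well above background in 201B7, differed by 1.08 (adjusted p = 0.223).

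Most genes that were higher in 201B7 shared this order of cultures. Of the 811 genes, 640 were ordered pre-culture over bFGF over FGFC in 201B7, and 116 were so ordered in KhES-1. A gene at background in KhES-1 cannot show a lower level there, so the count was repeated, after seeing the data, for the 622 of them well above background on all arrays of both lines: 480 had the order in 201B7 and 82 in KhES-1. Among the 100 largest, 94 and 20 were. Over all 14537 genes well above background in a line, 3423 showed this order in 201B7 and 2435 in KhES-1. The 379 genes lower in 201B7 did not show it, with 40 in 201B7 and 50 in KhES-1.

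For the 100 largest of the 811 genes, the steps between cultures were close in size from gene to gene. Their median step in 201B7 from pre-culture to bFGF was -1.23 (quartiles -1.37 and -1.02). From bFGF to FGFC it was -1.29 (quartiles -1.44 and -1.16). In KhES-1 the same genes had median steps of -0.09 and 0.01, but 37 of the 100 were at background on all KhES-1 arrays. For the 38 well above background on all arrays of both lines, the median steps were -1.24 and -1.23 in 201B7 and 0.09 and -0.04 in KhES-1. Over all 811 the steps in 201B7 were smaller and more spread, with medians of -0.72 (quartiles -1.05 and -0.19) and -0.65 (quartiles -0.98 and -0.34). The bFGF and FGFC cultures of 201B7 were on 1 slide and in 1 scan, so the step between them lies within a scan. The pre-culture was on another slide in another scan, and its arrays were the dim ones. With 1 culture for each stage, the steps were not tested.

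**Figure D3:**
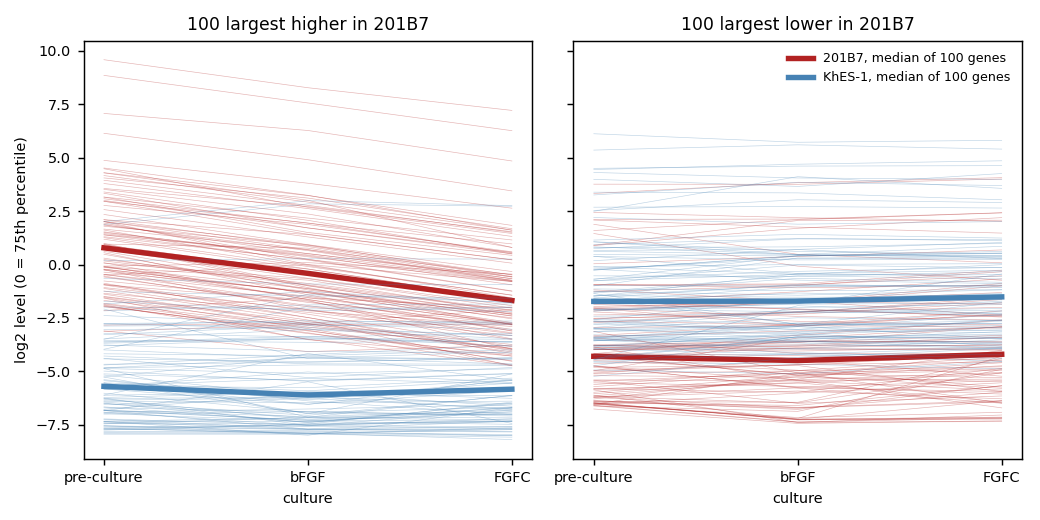
Log2 level of the 100 genes most different in each direction across the pre-culture, bFGF and FGFC cultures, thin lines for genes and thick lines for the median of 100 genes in each line. The red median of the genes higher in 201B7 lies lower at each stage, with median steps of -1.23 and -1.29, and the blue median of the same genes, 37 of them at background in KhES-1, stays nearly level.

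A smaller set was higher in 201B7 and steady. Of the 811 genes, 106 had levels within 0.5 of each other over the 201B7 cultures, against 6453 of all 14537 genes well above background in a line. The examples here were chosen after their values were seen. ACSF3, a mitochondrial acyl-CoA synthetase, measured 0.14, 0.09 and 0.11 in 201B7 and -2.14, -2.32 and -2.27 in KhES-1. RAB17, a small GTPase of polarised epithelia, measured 3.69, 3.80 and 3.88 in 201B7 and 1.93, 1.93 and 2.46 in KhES-1. SNHG17, a non-coding host of small nucleolar RNAs, measured 3.74, 3.90 and 4.10 in 201B7 and 2.50, 2.16 and 2.18 in KhES-1. In each, the 3 cultures of 201B7 lay together and above KhES-1, with differences of 2.35 (adjusted p = 0.00194), 1.69 (adjusted p = 0.00793) and 1.63 (adjusted p = 0.00729). LOC400682 and POTED differed by 3.55 (adjusted p = 0.000825) and 3.04 (adjusted p = 0.00172).

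The spread within lines differed in the same way. The SD of the log2 difference over probes was 0.417 to 0.495 between duplicate arrays and 0.384 to 0.448 between cultures of KhES-1. Between cultures of 201B7 it was 0.497 to 0.869. Between the lines it was 1.15 for the pre-cultures, 0.932 in bFGF and 0.708 in FGFC. The number of probes 2-fold apart was 16941, 9333 and 4659 for these pairs, so the FGFC cultures were the nearest. Among probes well above background the number was 7547, 5020 and 2129. In all 3 pairs the same 2186 probes were 2-fold apart in 1 direction, 1908 of them higher in 201B7.

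Genes lower in 201B7 were led by GSTT1. GSTT1, a glutathione S-transferase, measured -6.12, -7.25 and -7.17 in 201B7 and 0.75, 1.20 and 1.16 in KhES-1. It was at background on all 6 arrays of 201B7, at least 133-fold lower. RBM46, an RNA-binding protein of germ cells, measured -6.51, -7.24 and -6.37 in 201B7 and -0.68, -0.32 and -0.14 in KhES-1, also at background in 201B7 and at least 47.4-fold lower. Both were low in all 3 cultures of 201B7, with no overlap, and differed by -7.88 (SE 0.33, adjusted p = 0.000316) and -6.33 (SE 0.28, adjusted p = 0.000316). GLT1D1, a glycosyltransferase-like protein, measured -3.44, -4.17 and -4.18 in 201B7 and 0.62, 0.47 and 0.33 in KhES-1. TRDN, triadin, a protein of the sarcoplasmic reticulum, measured -3.75, -3.58 and -3.64 in 201B7 and 0.83, 0.47 and 0.85 in KhES-1. Neither gene overlapped between the lines, and the differences were -4.40 (adjusted p = 0.000825) and -4.38 (adjusted p = 0.000316).

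Of the 24 leading genes, 12 in each direction, 6 still passed with the scan as a random block: HOXC8, GSTT1, RBM46, FOS, GLT1D1 and TRDN. With the slide as a random block, 23 passed, and LY6K did not. With normexp background correction, 20 passed, and EGR4, FZD10, CCL3 and LY6K did not. LY6K, a membrane-anchored protein, measured -3.13, -5.08 and -6.49 in 201B7 and -1.49, -0.43 and -0.57 in KhES-1 and differed by -4.07 (adjusted p = 0.0194). It was also lost when any KhES-1 culture or the 201B7 bFGF culture was left out. The chemokine CCL3 and REG1A, a secreted lectin, had differences of -4.38 (adjusted p = 0.00141) and -3.88 (adjusted p = 0.00261).

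Several immediate early genes were lower in 201B7. These genes are switched on within minutes by growth factors through ERK, and include FOS and FOSB, subunits of the AP-1 factor, and the EGR zinc finger factors. FOS measured -2.03, -1.74 and -1.86 in 201B7 and 2.53, 3.03 and 2.90 in KhES-1. EGR1 measured 2.08, 1.75 and 1.47 in 201B7 and 4.45, 4.70 and 4.86 in KhES-1. FOSB measured -5.72, -5.07 and -4.47 in 201B7 and -1.57, -0.93 and -1.05 in KhES-1. The 3 cultures of 201B7 were low and those of KhES-1 high for each gene, with differences of -4.70 (SE 0.21, adjusted p = 0.000316), -2.90 (SE 0.23, adjusted p = 0.00235) and -3.90 (SE 0.34, adjusted p = 0.00306).

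EGR4 measured -5.54, -5.71 and -6.07 in 201B7 and -1.72, -1.05 and -0.96 in KhES-1, at background on all 201B7 arrays and at least 20.7-fold lower. IER2, an immediate early nuclear protein, measured 5.50, 5.57 and 5.60 in 201B7 and 6.84, 6.87 and 6.88 in KhES-1, a difference of -1.31 (adjusted p = 0.00792). Of the 19 genes listed as FGF and ERK targets, 0 were higher and 3 lower in 201B7 (FOS, EGR1 and IER2), with a median difference of -0.24. With 1 culture left out, 2 to 5 were lower, and with the scan as a random block 1 was. Other early response genes on the list, named after their values were seen, did not pass the test: IER3 at -0.11 (adjusted p = 0.704), FOSL1 at -0.24 (adjusted p = 0.516), MYC at -0.59 (adjusted p = 0.0768) and PHLDA1 at -0.68 (adjusted p = 0.0569). Nor did feedback genes of the pathway, named in the same way. DUSP6, a phosphatase of ERK, measured 1.76, 1.91 and 1.50 in 201B7 and 1.76, 1.90 and 1.92 in KhES-1, and the lines overlapped, at -0.14 (adjusted p = 0.571). SPRY4, an inhibitor of the pathway, and ETV4, an ETS factor, differed by -0.04 (adjusted p = 0.86) and 0.36 (adjusted p = 0.43). The dose of FGF was 10 ng/mL in 201B7 and 5 ng/mL in KhES-1, and its part in these differences cannot be told apart from that of the line.

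The promoters of these 5 genes are shown because the genes were lower together. All 5 were found by symbol in the RefSeq promoter table for GRCh38.p14, with 300 bases around the start of each gene. They lie at chr14:75278578-75278877 (FOS, + strand), chr19:45467746-45468045 (FOSB, + strand), chr5:138465229-138465528 (EGR1, + strand), chr2:73293499-73293798 (EGR4, - strand) and chr19:13150161-13150460 (IER2, + strand). Capitals mark TGACG on either strand, that is TGACG or CGTCA, the core of the element bound by CREB and ATF factors, and the CArG box, the 10-letter element of serum response factor.
FOS: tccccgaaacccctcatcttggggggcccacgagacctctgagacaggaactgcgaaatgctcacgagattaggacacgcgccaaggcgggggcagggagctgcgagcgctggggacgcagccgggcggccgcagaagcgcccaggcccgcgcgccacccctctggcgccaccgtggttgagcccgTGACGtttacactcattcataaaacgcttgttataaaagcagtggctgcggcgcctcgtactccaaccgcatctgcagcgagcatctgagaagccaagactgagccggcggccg
FOSB: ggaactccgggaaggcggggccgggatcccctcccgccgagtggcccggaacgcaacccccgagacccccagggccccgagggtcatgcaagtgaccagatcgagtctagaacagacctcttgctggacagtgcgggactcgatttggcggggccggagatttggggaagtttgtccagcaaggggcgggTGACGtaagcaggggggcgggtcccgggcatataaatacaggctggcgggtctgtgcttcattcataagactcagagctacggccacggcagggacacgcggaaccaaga
EGR1: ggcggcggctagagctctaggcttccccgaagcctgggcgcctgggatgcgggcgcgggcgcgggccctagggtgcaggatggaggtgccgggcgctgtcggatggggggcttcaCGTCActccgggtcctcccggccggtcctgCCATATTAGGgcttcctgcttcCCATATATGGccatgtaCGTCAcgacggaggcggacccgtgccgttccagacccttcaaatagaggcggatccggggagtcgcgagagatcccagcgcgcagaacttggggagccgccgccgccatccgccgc
EGR4: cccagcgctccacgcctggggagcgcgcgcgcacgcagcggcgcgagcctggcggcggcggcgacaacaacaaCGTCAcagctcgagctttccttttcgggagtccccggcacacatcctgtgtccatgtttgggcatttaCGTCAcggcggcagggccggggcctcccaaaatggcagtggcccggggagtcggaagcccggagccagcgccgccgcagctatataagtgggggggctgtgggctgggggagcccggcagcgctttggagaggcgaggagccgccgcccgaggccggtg
IER2: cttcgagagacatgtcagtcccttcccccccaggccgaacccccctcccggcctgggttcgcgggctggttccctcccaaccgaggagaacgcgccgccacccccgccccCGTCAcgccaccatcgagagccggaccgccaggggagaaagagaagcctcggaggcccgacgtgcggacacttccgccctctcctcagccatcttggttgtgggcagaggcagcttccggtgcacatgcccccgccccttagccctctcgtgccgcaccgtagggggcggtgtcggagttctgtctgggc
TGACG was in 5 of 5, with 2 matches in EGR1, 2 in EGR4 and 1 in each of the other 3, and 24.6% of all 35116 promoters of this length hold it. The CArG box had 2 matches in EGR1 and 0 in the other 4, and 1.29% of all promoters hold it. No matches overlapped (0). A match describes letters in the window and is not a measured site. Sequence outside the windows and looser forms of the CArG box were not searched, so a count of 0 does not show that a gene lacks the element.

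Among the pluripotency genes, both LEFTY genes were lower in 201B7. Of 27 genes on that list, 0 were higher and 3 lower in 201B7 (LEFTY2, LEFTY1 and NANOG), with a median of -0.27. LEFTY2 and LEFTY1 are secreted inhibitors of NODAL. LEFTY2 measured 2.44, 2.19 and 2.03 in 201B7 and 4.31, 4.05 and 3.99 in KhES-1, lower in all 3 cultures with a difference of -1.90 (SE 0.20, adjusted p = 0.00504). LEFTY1 measured 5.50, 5.51 and 5.08 in 201B7 and 6.55, 6.13 and 6.09 in KhES-1, a difference of -0.90 (adjusted p = 0.0361). NODAL measured 2.72, 2.36 and 1.70 in 201B7 and 3.55, 2.56 and 2.56 in KhES-1 and did not pass the test, at -0.63 (adjusted p = 0.206). LEFTY1 and NANOG did not pass the test after quantile normalization or with both pre-cultures left out. The list also kept only 1 lower gene with normexp, with the first array, with the slide as a random block, without the FGFC cultures, and without the 201B7 bFGF culture or any KhES-1 culture, and 0 with the scan as a random block.

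Genes of the naive state went both ways. Of 12, 3 were higher and 1 lower, with a median of 0.33 that was below 0 after quantile or median scaling. No gene of the list passed with normexp, with the slide or the scan as a random block, or without the bFGF culture of either line. KLF4, also a reprogramming factor, measured 0.07, -1.47 and -2.27 in 201B7 and -3.35, -3.46 and -3.47 in KhES-1, above KhES-1 in all 3 cultures and nearest to it in FGFC, with a difference of 2.21 (adjusted p = 0.0339). KLF17 measured 6.29, 6.40 and 5.83 in 201B7 and 5.28, 5.18 and 5.24 in KhES-1, a difference of 0.94 (adjusted p = 0.0283). KLF2 measured -5.08, -4.77 and -4.88 in 201B7 and -2.99, -3.54 and -3.73 in KhES-1, a difference of -1.49 (adjusted p = 0.0136). TBX3 differed by 4.66 (adjusted p = 0.0135) and was at least 19.5-fold higher, while a second TBX3 probe at background in both lines differed by 0.51. Of the 4 reprogramming factors, 1 (KLF4) was higher and 0 were lower, with a median of -0.19.

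A list of genes named in work on hiPSC and hESC differences had 2 of 20 higher and 5 lower, with a median of -0.31. With the scan as a random block, 0 were higher and 1 lower. All 5 lower genes belonged to the narrower group. TAFA5, a secreted chemokine-like protein, measured -4.30, -5.19 and -5.80 in 201B7 and 1.07, 0.61 and 0.51 in KhES-1. CTSF, the lysosomal protease cathepsin F, measured -3.97, -3.95 and -3.97 in 201B7 and -0.10, -0.46 and -0.01 in KhES-1. FZD10, a WNT receptor, measured -5.87, -7.40 and -7.05 in 201B7 and -1.60, -2.79 and -2.77 in KhES-1, at least 12.2-fold lower. None of these overlapped between the lines, and the differences were -5.82 (adjusted p = 0.00141), -3.77 (adjusted p = 0.000622) and -4.39 (adjusted p = 0.00548). TMEM132D, at background on all 201B7 arrays, differed by -3.17 (adjusted p = 0.00235) and was at least 4.19-fold lower, and TCERG1L differed by -1.17 (adjusted p = 0.0126). Catalase, CAT, went the other way at -2.84, -2.76 and -2.11 in 201B7 and -6.26, -7.54 and -7.60 in KhES-1: it was at background on all KhES-1 arrays, so 201B7 was at least 16.2-fold higher. The list's median kept its sign under all the scalings tried. In the pair of 253G1 and H1, described below, 3 of the 20 passed the test, none of them named here. There TAFA5 differed by -0.38 (adjusted p = 0.463), FZD10 by -0.255 (adjusted p = 0.755) and TMEM132D by -0.81 (adjusted p = 0.163). CTSF, at background on all 253G1 arrays, differed by -0.64 (adjusted p = 0.261) and TCERG1L by -0.30 (adjusted p = 0.346). CAT was lower in 253G1, at -0.88 (adjusted p = 0.113).

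Several clustered protocadherins were lower in 201B7. Clustered protocadherins are cell adhesion proteins, and each cell uses its own choice of their promoters. Of 46 on chromosome 5, 4 were higher and 12 lower, with a median of -0.25 that was 0.29 with normexp background correction. With normexp, 1 was higher and 2 lower, and with the scan as a random block 0 passed. A window of 10 neighbours with PCDHB5 to PCDHB12 held 6 genes of the narrower lower group, with a median of -1.42. PCDHB5 measured -1.70, -2.11 and -2.44 in 201B7 and 1.06, 0.46 and 0.41 in KhES-1. PCDHB16 measured -5.04, -4.69 and -4.57 in 201B7 and -2.68, -2.22 and -2.28 in KhES-1. PCDHA1 measured -6.22, -6.70 and -6.44 in 201B7 and -3.57, -3.60 and -3.71 in KhES-1. The KhES-1 cultures were higher in each, with differences of -2.73 (adjusted p = 0.0043), -2.37 (adjusted p = 0.00343) and -2.83 (adjusted p = 0.00169). PCDHA1 was at background on all 201B7 arrays, at least 5.03-fold lower. The calls of PCDHB16 and PCDHA1 were lost with normexp background correction. PCDHGA8 measured 6.15, 4.91 and 3.45 in 201B7 and 0.18, 0.27 and 0.26 in KhES-1, higher in 201B7 by 4.60 (adjusted p = 0.00823), but its second probe was at background in both lines.

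Imprinted genes, which are expressed from 1 parental copy, had 5 of 37 higher and 4 lower, with a median of 0.18 that was below 0 after quantile or median scaling. With the scan as a random block, 0 passed. PEG3, a zinc finger gene, measured 4.29, 3.01 and 0.80 in 201B7 and -4.18, -4.27 and -3.99 in KhES-1, highest in the 201B7 pre-culture and apart from KhES-1 in all cultures, with a difference of 6.85 (adjusted p = 0.00613). A second PEG3 probe was at background in both lines. HYMAI and GNAS-AS1, both non-coding, differed by 1.74 (adjusted p = 0.00811) and 0.82 (adjusted p = 0.0241). NNAT, neuronatin, measured 1.45, -0.08 and -0.74 in 201B7 and 3.26, 3.85 and 3.70 in KhES-1. H19, a non-coding RNA, measured -4.75, -5.41 and -6.71 in 201B7 and -2.67, -3.17 and -3.06 in KhES-1. A second H19 probe, well above background on 5 of the 6 arrays of 201B7, differed by -2.13 (adjusted p = 0.0193). NNAT and H19 were lower in every 201B7 culture, with differences of -3.39 (adjusted p = 0.0122) and -2.66 (adjusted p = 0.0163), where the first H19 probe was at background on all 201B7 arrays. ZDBF2 and PHLDA2 differed by -1.53 (adjusted p = 0.0115) and -1.19 (adjusted p = 0.0274).

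Glycolysis and hypoxia genes were more often lower than higher in 201B7. Of 26, 1 was higher and 7 lower, with a median of -0.58, and the median kept its sign under all the scalings tried. GPI, glucose-6-phosphate isomerase, measured 3.33, 3.83 and 4.07 in 201B7 and 5.36, 5.61 and 5.41 in KhES-1. LDHA, lactate dehydrogenase A, measured 4.03, 4.19 and 4.38 in 201B7 and 5.25, 5.37 and 5.41 in KhES-1. PFKL, a phosphofructokinase, measured 2.44, 1.87 and 2.12 in 201B7 and 3.87, 3.12 and 4.16 in KhES-1. All were higher in each KhES-1 culture, with differences of -1.71 (adjusted p = 0.0095), -1.14 (adjusted p = 0.0133) and -1.58 (adjusted p = 0.0202). ADM, adrenomedullin, differed by -1.25 (adjusted p = 0.0193). A second LDHA probe, well above background on all 12 arrays, did not pass the test, at -0.61 (adjusted p = 0.1). VEGFA, the vascular growth factor, was the exception at 3.16, 1.93 and 1.07 in 201B7 and -0.60, -0.14 and -0.29 in KhES-1, higher by 2.40 (adjusted p = 0.0228), and a second probe for it differed by 1.02 (adjusted p = 0.028). With 1 culture left out, 1 to 13 of the 26 were lower, and with the scan as a random block 0 were.

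Antigen presentation genes had 3 of 25 higher and 5 lower, with a median of -0.13. With the scan as a random block 0 passed, and 0 were higher and 2 lower without the 201B7 bFGF culture. B2M, the light chain of class I molecules, measured 5.19, 4.23 and 3.55 in 201B7 and 2.27, 2.79 and 2.72 in KhES-1, higher by 1.73 (adjusted p = 0.0321). HLA-C, HLA-DQB1, TAP2 and ERAP1 had differences of -1.22 (adjusted p = 0.0129), -1.87 (adjusted p = 0.00341), -1.48 (adjusted p = 0.00786) and -0.98 (adjusted p = 0.0352), and HLA-DRA was higher by 1.35 (adjusted p = 0.0337). Second probes for TAP2 and ERAP1 were at background in both lines. Among 22 glutathione transferases and peroxidases, 2 were higher and 6 lower, with a median of -0.21. Without the bFGF culture of either line or the KhES-1 FGFC culture, and with the scan as a random block, 0 were higher and 1 lower. GSTO1 measured 2.10, 2.56 and 2.80 in 201B7 and 3.83, 4.02 and 3.94 in KhES-1 and GSTM4 measured -2.93, -3.22 and -3.03 in 201B7 and -1.86, -1.85 and -1.65 in KhES-1, a difference of -1.45 (adjusted p = 0.0128) and -1.28 (adjusted p = 0.0102). GSTZ1 differed by -0.89 (adjusted p = 0.0363), GSTA2 by 1.22 (adjusted p = 0.048) and GPX8 by 0.71 (adjusted p = 0.0373). A second GPX8 probe went the other way, at -0.92 (adjusted p = 0.0185).

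Some members of each lineage list were higher in 201B7 under the main scaling, part of them on weak signals. Over all genes, 10.2% were higher in 201B7, and 4.15% were in the narrower group of higher genes. Of 19 neuroectoderm transcription factors, 4 were higher and 0 lower (median 0.42), and 2 of the 9 well above background in a line. With the scan as a random block, 0 passed on this list and on the other lineage lists of this paragraph. The calls of SOX1, at background on all 12 arrays, and ZIC1, marked on 1, rest on weak signals. EMX2, a cortical and urogenital homeobox factor, measured -0.12, -1.33 and -2.50 in 201B7 and -6.85, -5.49 and -7.44 in KhES-1. It was lower in each later 201B7 culture and above KhES-1 in all 3, with a difference of 5.28 (adjusted p = 0.00813). Of the 14 early differentiation markers that the study itself used, 3 were higher and 0 lower (median 0.36): MYH6, SOX1 and ZIC1. Of the 5 well above background in a line, 1 was. MYH6, a cardiac myosin, differed by 5.77 (adjusted p = 0.00642), and was at least 34.5-fold higher. Of 17 mesendoderm and endoderm factors, 3 were higher and 0 lower (median 0.89). That count was 7 without the 201B7 pre-culture, 6 without both pre-cultures, and 0 without the 201B7 bFGF culture or any 1 KhES-1 culture. CER1, a secreted inhibitor of NODAL and BMP, differed by 1.11 (adjusted p = 0.0447), a call lost under 3 of the other scalings and background settings. Of 15 amnion and trophoblast genes, 3 were higher and 0 lower (median 0.53), none of them in the narrower group. IGFBP3 differed by 0.75 (adjusted p = 0.0413).

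Of 36 WNT ligands, receptors and antagonists, 2 were higher and 2 lower (median 0.08). With the scan as a random block, 0 passed on this list and on the germline list below. FZD1, a WNT receptor, measured 1.50, 0.45 and -0.74 in 201B7 and -3.69, -3.43 and -3.65 in KhES-1, higher by 3.99 (adjusted p = 0.00795), while the ligands WNT5A and WNT10B differed by 0.67 (adjusted p = 0.0446) and -1.28 (adjusted p = 0.0216). Of 20 germline genes, 3 were higher and 3 lower (median 0.63). STK31 measured -6.37, -6.79 and -5.67 in 201B7 and -3.58, -2.91 and -3.10 in KhES-1 and DAZL measured -5.62, -4.97 and -4.34 in 201B7 and -3.43, -2.83 and -2.75 in KhES-1, a difference of -3.08 (adjusted p = 0.00504) and -1.97 (adjusted p = 0.0172). STK31 was at background on all 201B7 arrays, at least 6.18-fold lower. A second STK31 probe differed by -0.93 (adjusted p = 0.134). TEX101 differed by 1.25 (adjusted p = 0.0201) and DDX43 by -1.19 (adjusted p = 0.0238), which turned to 0.20 with normexp background correction. Of 479 ZNF genes, 24 were higher and 27 lower (median -0.18). These counts were 0 and 5 without the 201B7 bFGF culture, 39 and 66 without the 201B7 FGFC culture, and 8 and 136 with the median scale. They were 1 and 6 with the slide and 0 and 1 with the scan as a random block. ZNF208 measured -2.95, -2.86 and -2.93 in 201B7 and 0.48, 0.40 and 0.52 in KhES-1, a difference of -3.38 (SE 0.17, adjusted p = 0.000571), and ZNF503 measured -0.28, -1.32 and -2.10 in 201B7 and -4.22, -3.59 and -4.48 in KhES-1, higher by 2.87 (adjusted p = 0.0136).

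None of 8 DNA methylation enzymes passed the test in either direction (0 higher, 0 lower, median -0.05). With the median scale 2 were lower, and with all 27 cultures in the fit 2 were higher. None of 12 metallothioneins passed the main test (0 higher, 0 lower, median 0.00). Of these, 3 were higher without the FGFC cultures and 2 lower without the pre-cultures. A p above the threshold does not show that levels were alike. Medians of the naive, imprinted, early differentiation, neuroectoderm, WNT, DNA methylation, metallothionein, protocadherin and ZNF lists changed sign under at least 1 other scaling or background correction. With the scan as a random block, no list kept more than 1 call.

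**Figure D4:**
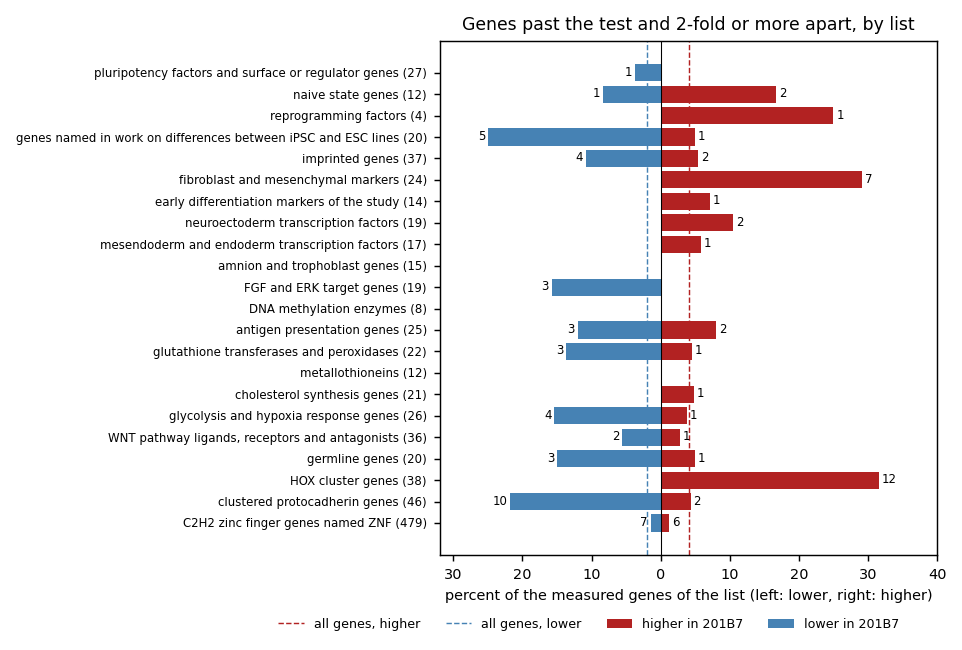
Share of the measured genes of each list that passed the limma test, were at least 2-fold apart, did not overlap and were well above background in the higher line, with counts at the bars and list sizes in brackets. Dashed lines give the share over all genes, 4.15% higher and 1.94% lower, and HOX genes reach farthest to the right with 12 of 38.

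Another pair of an hiPSC and an hESC line was 253G1 and H1, both grown in E8 Medium with 100 ng/mL of FGF, without feeder cells. It shares no array with the feeder pair, and it has its own 3 cultures for each line. For H1 these were the passage 48 pre-culture and the 30-day cultures. Other H1 cultures in E8 Medium were not used for this pair. In that pair, 856 genes passed the test (4.38%). Of the 3198 genes called on feeders, 234 were called there too, which is 7.32% of the feeder calls and 27.3% of the E8 calls. Their directions were mixed: 41 were higher in both hiPSC lines, 45 lower in both, 97 higher in 201B7 and lower in 253G1, and 51 the reverse. The difference between the pairs itself passed the test for 4484 genes (23.0%), among them 664 of the 811 and 251 of the 379. The 811 and the 379 were chosen for a large feeder difference, which is part of the difference tested. Their shares were largely set by that choice. Lines, medium, feeder cells and dose differ together between the pairs. Within the E8 pair no slide or scan held both lines, and the later cultures had grown for 36 days in 253G1 and 30 in H1, so line, slide, scan and days cannot be told apart there. The scan was not fitted as a block for that pair or for the difference between the pairs.

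DCN, HOXC8 and HIC1 were low in both lines of the E8 pair. DCN measured -6.58, -5.80 and -6.40 in 253G1 and -5.89, -6.28 and -6.71 in H1, a difference of 0.03 (adjusted p = 0.951), and the difference between the pairs was 9.66 (adjusted p = 0.000228). For HOXC8 it was 7.43 (adjusted p = 0.000143), and for HIC1 8.15 (adjusted p = 0.000221). HOXC8 was at background on all arrays of KhES-1, 253G1 and H1, HIC1 on all of KhES-1 and 253G1, and DCN on all of H1. These values are differences of signals, with those levels known only as bounds. The differentiated H1 culture had DCN at 5.31, below the 201B7 pre-culture and bFGF culture, with TBX15 at -3.11 and HOXC8 at -1.78. No other undifferentiated culture outside 201B7 on feeders had DCN above -2.09.

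EGR1 and FOSB went the other way in E8 Medium. EGR1 measured 1.73, 2.56 and 2.26 in 253G1 and -1.36, -1.27 and 0.05 in H1, higher in the hiPSC line by 3.04 (adjusted p = 0.0201). FOSB was higher there by 2.38 (adjusted p = 0.039), and EGR4 was at background on all arrays of both lines, while FOS and IER2 did not pass the test, at 1.54 (adjusted p = 0.121) and 0.19 (adjusted p = 0.569). The difference between the pairs was -5.94 (adjusted p = 0.000143) for EGR1, -6.24 (adjusted p = 0.00021) for FOS and -6.28 (adjusted p = 0.000242) for FOSB. Both lines received the same dose in E8 Medium, but the pairs differ in lines, medium, feeder cells and dose together. The part of dose was not tested.

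GSTT1 was low in both hiPSC lines. It measured -6.29, -6.13 and -6.07 in 253G1 and 0.95, 1.01 and 0.99 in H1, a difference of -7.15 (adjusted p = 4.22e-05). It was marked above background on 0 of 6 arrays in 253G1 and on 6 of 6 in H1, so in both pairs the level of the hiPSC line is only a bound. CCL3, LY6K, ZNF441 and CUTALP were also lower in 253G1, with differences of -2.93 (adjusted p = 0.00372), -3.23 (adjusted p = 0.0148), -3.08 (adjusted p = 0.00531) and -2.89 (adjusted p = 0.00859). In 253G1, CCL3, ZNF441 and CUTALP were at background on all arrays and LY6K was marked on 1, so these are differences of signals. CUTALP, at background on all 201B7 arrays, differed on feeders by -2.88 (adjusted p = 0.00384) and was at least 5.49-fold lower, and ZNF441 differed by -3.20 (adjusted p = 0.0066), while a second ZNF441 probe at background in both lines differed by 0.38 (adjusted p = 0.382). S100A6, a calcium-binding protein, measured 9.59, 8.28 and 7.22 in 201B7 and 2.00, 2.99 and 2.76 in KhES-1 on feeders, and 1.86, 2.31 and 1.81 in 253G1 against -1.39, -0.99 and -1.36 in H1, so it was higher in both hiPSC lines. IRX1, a homeobox factor, INHBA, the activin beta A subunit, HTR1A, a serotonin receptor, and MIR4458HG were higher in both as well. On feeders they differed by 3.34 (adjusted p = 0.0166), 2.72 (adjusted p = 0.0304), 1.91 (adjusted p = 0.0311) and 2.09 (adjusted p = 0.0095). In E8 Medium they differed by 2.41 (adjusted p = 0.0474), 2.51 (adjusted p = 0.0133), 3.51 (adjusted p = 0.00309) and 3.05 (adjusted p = 0.00859). MIR4458HG was at background on all H1 arrays. For S100A6, IRX1 and INHBA, the levels of the hiPSC line 253G1 overlapped with those of the hESC line KhES-1. With 2 lines of each type, these shared genes are a description. The labels do not give the donors of the lines, so cell type and a donor shared by lines cannot be told apart here.

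**Figure D5:**
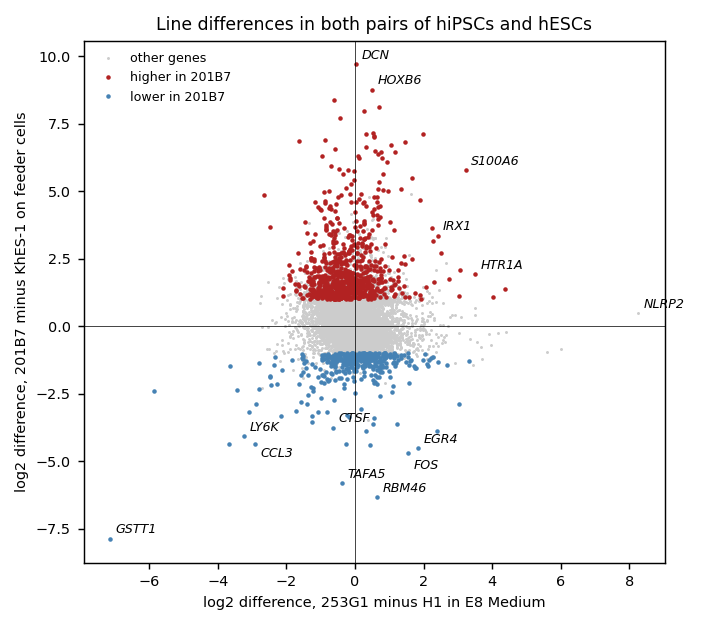
Log2 difference of each gene between 253G1 and H1 in E8 Medium (horizontal) and between 201B7 and KhES-1 on feeder cells (vertical), with the 811 higher and 379 lower genes coloured. Most coloured genes, DCN and HOXB6 among them, lie near 0 on the horizontal axis, while GSTT1 is low on both.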

How the data were processed

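The deposited files give, per the file headers, the intensity of each spot from Agilent Feature Extraction 10.7.3.1 (background-subtracted and detrended by the authors' scanner software, not scaled between arrays), and marks of other kinds, set to 0 or 1 by that software as deposited, for spots well above background and for outlier spots. Signals below 1 were set to 1. Outlier spots were left out (266 to 407 an array), log2 signals of a probe were averaged, and the array's 75th percentile was subtracted. Duplicate arrays were averaged, so n = 3 cultures a line. Of 42405 probes, 1570 placed on X or Y were left out; 25715 were named by accession, 1320 by the supplementary tables and 15370 by neither. A probe counted as above background with the mark on at least 0.5 of its spots. Differences were tested with limma 3.58.1 (lmFit, eBayes, 2-sided, Benjamini-Hochberg over 40835 probes, threshold 0.05) in R 4.3.3; tables used Python 3.11.15, numpy 2.4.6 and pandas 2.3.3, and figures matplotlib 3.10.9. The test measures spread among 3 cultures of 1 line, which differ in stage. An "at least" fold takes the low line at the lowest signal marked above background on each array, or at its own signal where higher. Each gene was taken by its probe of highest mean over all arrays.

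Named genes were the 12 largest differences in each direction among genes past the test with no overlap and well above background on all arrays of the higher line; up to 4 called members a list and direction; 5 pluripotency genes; and up to 5 a direction called in both pairs or in the difference between the pairs. Members and lists were chosen with earlier results of these data known. Alternatives were other scalings, background corrections, filters, single arrays, blocks for stage, slide and scan, all 27 cultures, and left-out cultures. The code was tested on simulated data.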

Additional observations from a re-analysis of the deposited data

Results flagged for a closer look

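The line difference on feeder cells differed from that in E8 Medium by the test of the difference itself for each gene named here, and the values are 201B7 minus KhES-1 less 253G1 minus H1, on the log2 scale. It was larger on feeders for DCN (9.66), HOXC6 (8.99), PEG3 (8.48), HOXB6 (8.26) and HIC1 (8.15). In E8 Medium, HOXC6 and HOXB6 were at background on all arrays of both lines, HIC1 on all of 253G1 and DCN on all of H1. Values for these genes are differences of signals, with the levels there known only as bounds. S100A6 was higher in both hiPSC lines, by 2.54 more on feeders. RBM46 (-6.97) was lower in 201B7 and did not pass the test in 253G1. It was at background on all arrays of 201B7, 253G1 and H1, so -6.97 is a difference of signals. EGR4 (-6.36) was lower in 201B7 and at background on all arrays of 201B7, 253G1 and H1. Its value too is a difference of signals. CCL3 (-1.45) was lower in both and HTR1A (-1.60) higher in both. CCL3 was marked above background on 1 array of 201B7 and 0 of 253G1, so its value is a difference of signals.

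NLRP2 (-7.80), LRRC61 (-6.84) and SVIL-AS1 (-6.58) were also far apart between the pairs in the other direction. NLRP2, an imprinted gene, measured 2.41, 2.59 and 2.75 in 201B7 and 1.73, 2.27 and 2.32 in KhES-1 and did not pass the test on feeders, at 0.48 (adjusted p = 0.135). In E8 Medium it measured 2.77, 2.75 and 2.92 in 253G1 and -3.92, -5.90 and -6.55 in H1. H1 was the low line, and the other 3 lines were high. LRRC61 measured -5.85, -4.04 and -7.05 in H1 and SVIL-AS1 measured -6.83, -6.23 and -6.91, again the low line of the 4. In H1, LRRC61 was marked above background on 1 array and SVIL-AS1 on 0, so the SVIL-AS1 level there is only a bound. Both passed the test on feeders, at -0.84 (adjusted p = 0.0327) for LRRC61 and -0.97 (adjusted p = 0.0235) for SVIL-AS1.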

How the results depend on the processing

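Directions were kept by all 104 named genes under all alternatives except 1: the log2 difference of DDX43 was -1.19 and became 0.20 with normexp background correction. Calls were kept less often. Named genes that no longer passed the test numbered 17 after quantile normalization and 11 with the median of the probes as the scale. With normexp they numbered 53, besides DDX43. They numbered 24 and 6 with the first and second array alone, 39 with the slide and 91 with the scan as a random block. Without the 201B7 pre-culture, bFGF and FGFC cultures they numbered 2, 45 and 0. Without the KhES-1 pre-culture, bFGF and FGFC cultures they numbered 36, 46 and 40. They numbered 22 with both pre-cultures left out, an alternative chosen after seeing the data, as was the scan block. The causes of the shifts below were not tested.

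Of 7948 probes past the test, 6207 higher and 1741 lower, other settings gave the following. Quantile normalization gave 3182, with 1558 higher. With the median of the probes as the scale, 3298 were higher and 7675 lower. Normexp gave 343, with 253 higher and 90 lower. Testing only probes well above background gave 3021 lower. The first array of each culture gave 2864, with 2364 higher and 500 lower. With the culture stage as a replicate block, 6977 passed and 1047 were lower; the stages do not pair the lines, since the correlations of their deviations were 0.160, -0.096 and -0.002. The slide as a random block gave 1116 (936 higher, 180 lower), with a correlation within slides of 0.495. The scan as a random block gave 14 (5 higher, 9 lower), with a correlation of 0.667. A fit of all 27 cultures gave 13268, with 4640 lower. Without the FGFC cultures, 668 were lower. Without the pre-cultures, 2662 passed (2111 higher, 551 lower). With 1 culture left out, the count ran from 618 to 17259, the higher from 513 to 12530 and the lower from 105 to 4729.

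Probes 2-fold apart on the means numbered 7278, and 4015 after quantile normalization, 1577 with normexp and 3896 among probes well above background. Those 2-fold apart in all 3 stages numbered 2186, and 1225, 392 and 1354 under the same settings. Members of lists past the test numbered 167, and 295 with the median scale, 33 with normexp, 83 with the first array, 58 with the slide block, 5 with the scan block, 283 with all cultures, 109 without FGFC and 106 without the pre-cultures; with 1 culture left out they ran from 47 to 291. For 253G1 against H1, 1971 probes passed, and 3270 with signals raised to the lowest well above background, 561 and 1141 with the first and second array, and 656 with the replicate block. The difference between the pairs passed for 10845, and for 19328 with raised signals and 7215 with normexp.

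About 3 in 10 probes were not marked above background on an array, and a level there sets only a bound. Lines, days, dose, slides and scans cannot be told apart, 1 line stands for each type, and cultures of different stages served as replicates.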

Other observations

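Markers of early endoderm were uneven among the cultures. SOX17, an endoderm transcription factor, measured -4.97, -0.84 and -0.85 in 201B7 and -2.24, -4.32 and -4.59 in KhES-1. GATA6, another, measured -5.74, -1.79 and -1.86 in 201B7 and -3.88, -5.38 and -5.39 in KhES-1. In 201B7 both were low in the pre-culture and higher in bFGF and FGFC, and in KhES-1 both were highest in the pre-culture. Neither passed the test, at 1.50 (adjusted p = 0.329) and 1.75 (adjusted p = 0.214). AFP, made by yolk sac and fetal liver, measured 2.78, 2.13 and 1.63 in 201B7 and 1.54, 0.94 and 0.88 in KhES-1 and was well above background on all 12 arrays.

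Probes without a gene symbol from intergenic regions that give long non-coding RNA were more often higher than lower in 201B7 under the main scaling, the only one counted for them: of 7306 such probes, 3948 were well above background in a line, 1751 were higher and 117 lower in 201B7, and 802 and 53 of them met the rule for the narrower group. Over all 40835 probes, 6207 were higher and 1741 lower, a balance that turned with the median of the probes as the scale.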
